A study of Arabidopsis thaliana with 12 samples.

Results

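Uninfected, mock-infiltrated leaves of the Arabidopsis thaliana mutant sid2 were compared with leaves of its Col-0 wild type (WT) by RNA sequencing. The libraries were chosen by title, as the 3 named sid2_DMSO and the 3 named WT_DMSO, and make up 6 of the 12 libraries of the series. In both groups plants were 4-week-old, kept at 22 °C in short days (10 h light, 14 h dark), and had 3 leaves each infiltrated by syringe with 0.01% DMSO. The leaves were frozen 24 h later. Both groups thus share the infiltration and the solvent, and an untouched leaf is not among the samples. The other 6 libraries are leaves of the same genotypes given latrunculin B, a compound that keeps actin filaments from assembling. They serve here as a second readout of the genotype, and they also entered the model behind every mock call, where they share in the filter, the scaling and the estimate of spread; a model of the 6 mock libraries alone called 1044 genes, against 2001 with all 12. The labels name neither the sid2 allele nor the plants behind each library, so the p-values rest on a spread between libraries that may be technical. The time of day at freezing is not given.

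Salicylic acid (SA) is a phenolic hormone that plants make against biotrophic pathogens. In Arabidopsis most of it is made from chorismate by isochorismate synthase 1 (ICS1, also called SID2), whose function sid2 mutants lack, while EDS5 moves isochorismate out of the chloroplast and PBS3 joins it to glutamate. The hormone is sensed through the NPR proteins, which with TGA and WRKY transcription factors control genes such as PR1, and sid2 plants are known for low SA and weak systemic acquired resistance.

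The deposited files hold estimated read counts per transcript. These were summed per gene, and the levels given are CPM, read counts scaled to each library's depth with TMM factors. The sid2 libraries held 17982949, 14506962 and 15842386 reads, and the WT libraries held 16127876, 19657252 and 22449387. Of 27313 genes with a model, 18149 had enough reads to be tested, and genes were called by edgeR's quasi-likelihood test at a Benjamini-Hochberg adjusted p under 0.05 over all of them. The first principal component of the 6 libraries held 41.8% of the variance and separated the genotypes, with sid2 at −54.97, −51.11 and −23.03 and WT at 57.7, 38.53 and 32.88. Replicate 3 of sid2 lay nearest to WT on that component. On the second component (22.2% of the variance) the sid2 libraries lay at 2.991, −48.63 and 57.84, so replicates 2 and 3 lay far from replicate 1 on opposite sides.

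ICS1 (AT1G74710), the gene that the mutation is named for, was read first. It lies on the plus strand of chromosome 1 at 28070295-28074177 of the TAIR10.1 assembly. Its level was 372, 371 and 365 CPM in the sid2 libraries, against 21.6, 22.3 and 23.9 CPM in the WT libraries. All 3 sid2 libraries thus lay far above all 3 WT libraries, with means of 370 ± 3.69 and 22.6 ± 1.19 CPM (SD, n = 3 each), a 16.3-fold difference (log2 4.03 ± 0.16 SE, edgeR adjusted p = 1.18e-08). Of its 2 gene models, the shorter, with 1710 coding bases, took 67.1 to 77.2% of ICS1 reads in sid2 and 61.1 to 82.7% in WT, so the split between models overlapped. A read count over the whole coding sequence does not show whether the transcript carries a lesion, so this level does not by itself check the loss of function. ICS2, the second isochorismate synthase gene, had 13.2, 12.9 and 7.49 CPM in sid2, against 6.42, 7.5 and 5.92 CPM in WT, and was not called (edgeR adjusted p = 0.125).

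Several genes that respond to SA were among the 15 with the largest fall in sid2 leaves. PR1 (AT2G14610; chromosome 2, 6241640-6242541, minus strand), a secreted protein widely used as the marker of SA signalling, had 0.124, 0 and 0.357 CPM in sid2, against 153, 120 and 79.4 CPM in WT. These levels stand for 7 reads over all sid2 libraries and 6241 over all WT libraries, and the WT level was 696 times the sid2 level, with a 95% counting interval of 338 to 1732 (edgeR adjusted p = 1.48e-06). PCC1, a small membrane-associated protein induced by pathogens, had 7, 7.56 and 5.5 CPM in sid2 and 539, 377 and 326 CPM in WT, and was 61.9-fold lower (log2 −5.95 ± 0.46, edgeR adjusted p = 3.71e-06). LURP1, needed for full resistance to downy mildew, had 24.5, 8.87 and 14.5 CPM in sid2 and 654, 477 and 608 CPM in WT, 36.1-fold lower (edgeR adjusted p = 7.95e-07). In none of these genes did a sid2 library come near a WT library. BG3, a glucanase gene related to PR2, had 3.84, 3.7 and 5.78 CPM in sid2 and 47.6, 44 and 53.4 CPM in WT (10.9-fold lower, edgeR adjusted p = 1.12e-06). ACD6, an ankyrin membrane protein that acts with SA in a feedback loop, fell less, to 377, 279 and 249 CPM in sid2, against 859, 797 and 906 CPM in WT (2.83-fold lower, edgeR adjusted p = 0.000102).

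Several SA-responsive genes gave no read in any of the 3 sid2 mock libraries. UGT76B1, a glucosyltransferase acting on SA and other immune signals, had 6.49, 4.46 and 6.93 CPM in WT and was at least 85.9-fold lower in sid2. NIMIN1, which binds NPR1, had 6.69, 2.07 and 3.79 CPM in WT (at least 57.2-fold lower in sid2), and WRKY38, a transcription factor that restrains basal defence, had 2.77, 2.23 and 2.63 CPM (at least 36.4-fold lower in sid2). These bounds set sid2 at 3 reads over the group and cover counting error only. Other genes with no sid2 read were MRD1 (12.1, 11.5 and 9.02 CPM in WT, at least 153.8-fold lower in sid2), whose function is not well known, and ARD3, an acireductone dioxygenase-like gene (8.58, 6.43 and 2.96 CPM in WT, at least 81.2-fold lower in sid2). WRKY38 and ARD3 had no read in the 3 sid2 libraries given latrunculin B either. NAC004, a NAC transcription factor gene, had 3 reads in sid2 mock leaves (0.062, 0.154 and 0 CPM) and 462 in WT (12.1, 6.33 and 7.58 CPM), a WT level 120 times that in sid2 with a 95% counting interval of 40.9 to 585.

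Over the whole list of 25 tested SA-response genes, 15 were lower in sid2, 2 were higher and 8 were not called, with a median log2 difference of −0.74; over all genes tested 11.0% were called (4.46% higher, 6.56% lower) and the median was 0.01. This list and those below were chosen with earlier results of these data known, so their counts and medians describe the lists and do not test them. The called SA-response members include receptor genes, transcription factors and targets, but not the receptor gene NPR3 (log2 0.11, edgeR adjusted p = 0.761). The receptor genes NPR1 (46.7, 39.2 and 48.2 CPM in sid2, 63.5, 61.2 and 70.9 CPM in WT) and NPR4 (41.3, 33.1 and 33.4 CPM in sid2, 55.3, 46.6 and 58 CPM in WT) fell by 0.54 and 0.57 on the log2 scale (edgeR adjusted p = 0.0126 and 0.0114), without overlap between genotypes. Among transcription factors, WRKY54, a negative regulator of SA synthesis, fell to 4.21, 3.09 and 1.43 CPM in sid2, against 22.9, 14.4 and 25.2 CPM in WT (7.08-fold lower, edgeR adjusted p = 4.67e-05). WRKY18, which acts in basal defence, had 28.4, 16.2 and 41.9 CPM in sid2 and 71.8, 83.5 and 112 CPM in WT (log2 −1.63, edgeR adjusted p = 0.00162). NIMIN2 had 0.124, 0.463 and 1.57 CPM in sid2 and 11.5, 6.75 and 8.46 CPM in WT, a log2 difference of −3.65 that was −4.96 without sid2 replicate 3. The members that rose were WRKY46 (21.4, 14.1 and 25 CPM in sid2, 6.83, 8.13 and 14.1 CPM in WT) and AIG1, a GTP-binding protein gene induced by avirulent bacteria (135, 77.9 and 122 CPM in sid2, 61.2, 74 and 59.5 CPM in WT). The calls of WRKY46, AIG1, WRKY51 and NUDT6 ended without WT replicate 1 or 2 (edgeR adjusted p = 0.0507 to 0.166 over the 4 genes). They also ended without WT replicate 3 (AIG1, WRKY51), sid2 replicate 1 (all but WRKY51), sid2 replicate 2 (WRKY51, NUDT6) or sid2 replicate 3 (all but NUDT6). The other 13 calls of the list passed without any 1 library, in fits that keep the latrunculin B libraries. In the model of the 6 mock libraries alone, 11 members were called lower and 0 higher. NPR1 and NPR4 did not pass in that model (edgeR adjusted p = 0.0508 and 0.0597).

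Some of the best known SA markers were not called. PR2, a glucanase, had 126, 203 and 142 CPM in sid2 and 106, 133 and 187 CPM in WT (log2 0.15, edgeR adjusted p = 0.746). PR5, a thaumatin-like protein, had 56.8, 49.6 and 53.2 CPM in sid2 and 39, 57.1 and 66.4 CPM in WT (log2 −0.03, edgeR adjusted p = 0.956). WRKY70 had 122, 46 and 56.5 CPM in sid2 and 103, 60.6 and 68.7 CPM in WT (log2 −0.05, edgeR adjusted p = 0.949). In each of these the genotypes overlapped, in contrast to PR1, PCC1 and LURP1, although a p that misses the threshold does not show equal levels.

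**Figure D1:**
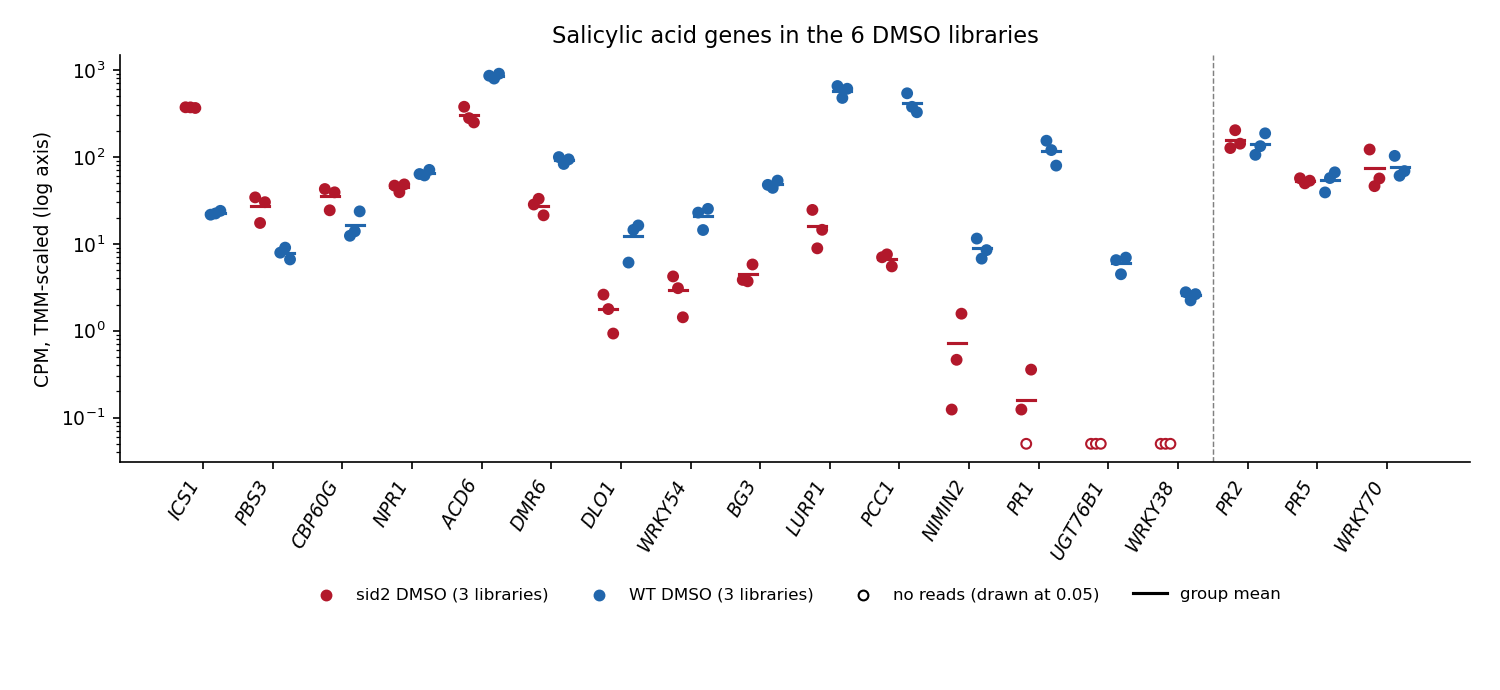
Levels of SA genes in the 6 mock libraries (CPM, log axis), with sid2 left of WT for each gene; points are libraries, bars are group means, and open circles drawn at the bottom mark libraries with no read. ICS1, PBS3 and CBP60G lie higher in sid2, most other genes left of the dashed line lie lower, and PR2, PR5 and WRKY70, right of it, overlap.

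Promoter sequence is shown for 4 of the genes most reduced in sid2, because TGA factors bind the letters TGACG and WRKY factors bind TTGAC, and the SA pathway acts through both families. They are those of the 15 genes with the largest fall whose window held 3 or more TGACG matches, and were picked with these counts known. Each line gives the 250 bases before the annotated gene start, 5′ to 3′ on the gene's own strand, read from the RefSeq TAIR10.1 genome, with TGACG and TTGAC on either strand in capitals (the motifs overlap where TTGACG occurs).
NAC004, chr1:436923-437172, minus strand: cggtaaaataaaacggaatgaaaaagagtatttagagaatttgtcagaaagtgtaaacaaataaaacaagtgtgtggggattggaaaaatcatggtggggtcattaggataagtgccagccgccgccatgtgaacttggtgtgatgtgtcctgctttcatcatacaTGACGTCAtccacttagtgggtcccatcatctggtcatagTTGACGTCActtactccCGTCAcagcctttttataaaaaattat
ARD3, chr2:11233389-11233638, minus strand: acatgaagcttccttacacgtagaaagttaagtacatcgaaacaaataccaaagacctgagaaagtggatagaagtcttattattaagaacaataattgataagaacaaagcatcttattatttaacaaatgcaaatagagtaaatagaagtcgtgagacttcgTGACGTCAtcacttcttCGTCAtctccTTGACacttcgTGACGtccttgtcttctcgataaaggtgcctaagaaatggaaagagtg
AT3G22235, chr3:7855815-7856064, minus strand: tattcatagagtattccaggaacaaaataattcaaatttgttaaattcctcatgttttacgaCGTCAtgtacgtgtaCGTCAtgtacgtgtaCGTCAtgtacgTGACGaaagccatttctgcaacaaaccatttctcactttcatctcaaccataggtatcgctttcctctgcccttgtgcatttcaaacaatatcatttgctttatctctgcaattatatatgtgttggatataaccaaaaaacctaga
PCC1, chr3:7846834-7847083, minus strand: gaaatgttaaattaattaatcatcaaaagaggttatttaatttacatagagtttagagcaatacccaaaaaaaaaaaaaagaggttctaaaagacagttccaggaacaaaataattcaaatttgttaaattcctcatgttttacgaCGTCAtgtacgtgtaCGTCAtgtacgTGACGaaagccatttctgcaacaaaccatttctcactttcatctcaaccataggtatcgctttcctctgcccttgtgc
The NAC004 window held 5 matches to TGACG, the ARD3 and AT3G22235 windows 4 each and the PCC1 window 3. Both strands were counted, so TGACGTCA, which reads the same on either strand, gives 2 matches at 1 place. It occurs in the NAC004 and ARD3 windows, and it was counted in this way in the shares below as well. Over 18005 windows of tested genes, 0.728% held 3 or more TGACG matches, and the share was 0.84% over all genes called lower and 1.49% over all genes called higher. Among the 15 genes with the largest fall there were 4 such windows, and among the 15 with the largest rise 1. These counts do not compare separate or equally measured genes. The PCC1 and AT3G22235 windows share sequence, as given below. GLR2.5, AT2G44240 and PHT3;2, also among the 15 falls, had means of 0.65, 0.61 and 0.34 CPM in WT mock leaves. They met the limit on mean level through the WT libraries given latrunculin B (means of 34.8, 60.8 and 12.3 CPM). In all genes called lower, TGACG was present in 21.9% of windows, in all called higher also in 21.9%, and in all windows 19.5%. TTGAC was present in 52.6% of the windows of genes called lower, 43.9% of those called higher and 45.1% of all windows. The G-box CACGTG, bound by bZIP and bHLH factors, was in 4.95% of windows of genes called lower, 11.0% of those called higher and 7.54% of all. These are letter matches in a fixed window, given as a description and not as binding sites. PCC1 and AT3G22235 encode related small cysteine-rich proteins, their starts lie 8981 bases apart and their windows share an unbroken run of 105 bases. These windows lie outside the coding sequence that was counted, and whether reads of the 2 genes were shared was not tested. AT3G22235 had 43.1, 26.2 and 31.1 CPM in sid2 and 1265, 861 and 808 CPM in WT (29.2-fold lower, edgeR adjusted p = 1.12e-06).

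Among 19 tested genes of SA synthesis and its regulators, 4 were higher in sid2 and 2 lower, with a median log2 difference of 0.23. Over all genes 4.46% were higher and 6.56% lower. After ICS1, the next largest rise was of PBS3, the enzyme that acts on isochorismate, at 34.2, 17.36 and 30.1 CPM in sid2, against 7.91, 9.04 and 6.61 CPM in WT (3.48-fold higher, log2 1.80 ± 0.29, edgeR adjusted p = 0.00149). CBP60G, a transcription factor that activates ICS1, was also higher, at 42.7, 24.3 and 39.1 CPM in sid2, against 12.4, 13.9 and 23.62 CPM in WT (2.12-fold, edgeR adjusted p = 0.0172), while its partner SARD1 was lower, at 25, 16.7 and 26.7 CPM in sid2, against 37, 38.4 and 50.1 CPM in WT (log2 −0.87, edgeR adjusted p = 0.0308). These related activators of ICS1 thus moved in opposite directions, without overlap of libraries, as did 27.1% of all genes tested. For CBP60G the gap was narrow, at 24.3 CPM in sid2 replicate 2 against 23.62 CPM in WT replicate 3. In the model of the 6 mock libraries alone CBP60G did not pass (edgeR adjusted p = 0.0537) and SARD1 did (edgeR adjusted p = 0.0353). CBP60A, a repressor of the pathway, was called higher (60.7, 33.2 and 51.5 CPM in sid2, 27.4, 29.4 and 35.4 CPM in WT) although its genotypes overlapped. NDR1, a membrane protein needed for defence through several immune receptors, fell (11.5, 8.48 and 8.99 CPM in sid2, 16.8, 16.1 and 20.7 CPM in WT; edgeR adjusted p = 0.00378). EDS1, PAD4, SAG101 and the transporter gene EDS5 were not called. The calls of ICS1, PBS3 and NDR1 passed without any 1 library. Those of CBP60G, SARD1 and CBP60A ended without sid2 replicate 1 or WT replicate 1 or 2, and also without sid2 replicate 2 or WT replicate 3 for SARD1 and without sid2 replicate 3 for CBP60A (edgeR adjusted p = 0.0539 to 0.152).

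Of 10 tested genes that modify or break down SA, 4 were lower in sid2, 1 was higher and 5 were not called (median log2 −0.48), beside 6.56% lower and 4.46% higher over all genes. DMR6, the SA 5-hydroxylase that removes the hormone, had 28.3, 32.9 and 21.3 CPM in sid2 and 99.5, 82.9 and 93.7 CPM in WT (3.35-fold lower, edgeR adjusted p = 2.67e-05). Its paralog DLO1, the SA 3-hydroxylase, had 2.6, 1.77 and 0.928 CPM in sid2 and 6.08, 14.5 and 16.3 CPM in WT (log2 −2.78, edgeR adjusted p = 0.00106). MES9, an esterase that frees SA from its methyl ester, rose to 6.2, 8.18 and 7.78 CPM in sid2, against 2.5, 2.23 and 3.75 CPM in WT (edgeR adjusted p = 0.00893). In all of these the genotypes were apart in every library. The sulfotransferase gene SOT12 was called lower at log2 −0.84, a call that ended without sid2 replicate 1 or 2 or WT replicate 3 (edgeR adjusted p = 0.067 to 0.124). The list for N-hydroxypipecolic acid, the other mobile signal of systemic resistance, held 3 tested genes, of which UGT76B1, given above, was lower. The other two were low and not called: ALD1 had 0.062, 0.463 and 3.14 CPM in sid2 and 1.49, 0.16 and 1.2 CPM in WT (edgeR adjusted p = 0.841), and FMO1 had 0, 1.85 and 3 CPM in sid2 and 0.744, 0.0532 and 0 CPM in WT (edgeR adjusted p = 0.14).

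Over all 18149 genes, 2001 were called (11.0%), 810 of them higher in sid2 and 1191 lower. By fitted values the lower side held the larger changes: 74 genes fell at least 8-fold and 37 at least 16-fold, against 15 and 7 that rose as far. The median called change was 1.99-fold on the lower side and 1.75-fold on the higher. For genes with no read in either genotype's mock libraries, the fitted fold depends on the prior count. PHT3;2, with no sid2 read, was fitted at 46.6-fold lower, while its counts bound the fall only at 4.42-fold or more. Of the called genes, 777 of the higher and 1169 of the lower did not overlap between genotypes, as did 27.1% of all genes tested. No sid2 read was found for 19 of the lower genes, and no WT read for 2 of the higher. The split between directions depended on scaling: with library size alone, in place of TMM, it was 552 higher and 1536 lower, and the median of all genes was −0.08. The count also depended on single libraries: 1035 genes were called without WT replicate 1, 1094 without sid2 replicate 1 and 1291 without WT replicate 2. Without sid2 replicate 3, 2347 genes (12.7% of those tested) were called, 951 (5.14%) higher and 1396 (7.55%) lower. Of the 2001 genes, 796 passed in all 6 fits that each left out 1 library. Calls were spread evenly over the 5 chromosomes, at 3.97 to 4.84% of the tested genes higher and 6.33 to 7.05% lower. Of the 50 annotated genes nearest to ICS1, 29 were tested and 4 called (log2 −1.14 to 2.56).

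**Figure D2:**
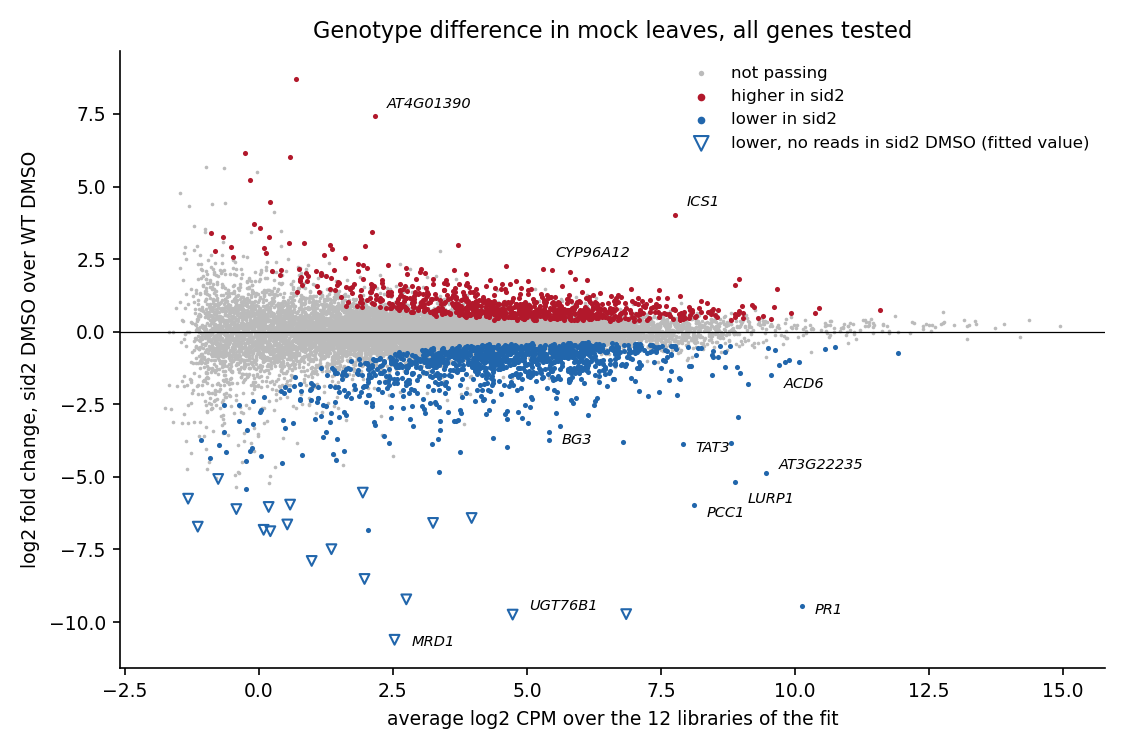
Log2 difference of sid2 over WT in mock leaves against mean level (log2 CPM) for all genes tested, with called genes coloured and triangles for genes with no sid2 read, drawn at their fitted values. The 1191 lower genes reach further from 0 than the 810 higher ones, of which ICS1 is the clearest at a high level.

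The genes that rose most in sid2 other than ICS1 were less even across libraries. CYP96A12, a cytochrome P450 gene, was the steadiest, with 66.7, 96.8 and 62.2 CPM in sid2 and 18.6, 14.3 and 17.9 CPM in WT (4.44-fold higher, log2 2.15 ± 0.18, edgeR adjusted p = 8.49e-06). AT4G01390, a TRAF-like gene (chromosome 4, 570200-571595), had 13.1, 8.79 and 0.285 CPM in sid2 and 0, 0 and 0.0925 CPM in WT. Replicate 3 of sid2 was thus far below the other sid2 libraries. With 329 reads in sid2 against 2 in WT, the sid2 level was 211 times that in WT, with a 95% counting interval of 57.9 to 1748, and the call passed without any 1 library (edgeR adjusted p = 0.00231). The fitted log2 value, which depends on the prior count at such levels, was 7.43, and was 6.72 without sid2 replicate 1 and 10.03 without WT replicate 3. AT2G26695, a zinc finger gene, had 34.8, 38.8 and 8.71 CPM in sid2 and 3.72, 3.46 and 3.33 CPM in WT (log2 2.97, edgeR adjusted p = 0.000957), and AT1G64360 had 57.8, 40 and 17.9 CPM in sid2 and 5.07, 9.04 and 9.71 CPM in WT (log2 2.27, edgeR adjusted p = 0.00737). In both, replicate 3 was the lowest sid2 library but still above every WT library. LSU1 and LSU3, small proteins known from sulfur deficiency, rose by 2.65 and 2.86 on the log2 scale, with WT levels of 0.0532 to 1.22 CPM (3.35 for LSU1 without WT replicate 3 and 3.89 for LSU3 without WT replicate 1). The other called genes with the largest rises (AT5G15500, PIN5, AT1G53100, AT5G52730, AT1G48100, AT1G69480, MEE3 and AT3G29000) had log2 differences of 2.13 to 3.42. Of these 8, AT5G52730 passed without any 1 library. The other 7 ended without sid2 replicate 1, PIN5, AT1G53100, AT1G48100, MEE3 and AT3G29000 also without WT replicate 1, and PIN5, AT1G53100, AT1G48100 and AT1G69480 also without WT replicate 3 (edgeR adjusted p = 0.0516 to 0.200). AT1G48100 and AT1G69480 ended without sid2 replicate 3 as well, and AT1G48100 without WT replicate 2. Without sid2 replicate 1 the log2 difference was 2.45 for AT5G15500, 1.86 for PIN5, 1.37 for AT1G53100, 1.52 for MEE3 and 1.54 for AT3G29000, and without WT replicate 2 it was 4.12 for both AT5G15500 and PIN5.

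Beyond the SA genes, the members of 4 lists of other immune receptors, kinases and WRKY factors that were called were all lower in sid2. Of 26 genes of pattern-triggered immunity 5 were lower (median log2 −0.41), of 20 NLR receptor genes and partners 7 (−0.17), of 15 cysteine-rich receptor-like kinases 4 (−0.17), and of 19 other WRKY factors 4 (−0.27), set against 6.56% lower and a median of 0.01 over all genes. All 4 medians were lowest in sid2 replicate 2. Relative to the WT mean, they were −0.21, −0.59 and −0.12 in sid2 replicates 1, 2 and 3 for pattern-triggered immunity and 0.02, −0.37 and −0.27 for NLR genes. They were 0.08, −0.88 and −0.25 for the kinases and −0.06, −0.65 and −0.08 for the WRKY factors. Without sid2 replicate 2, 4, 6, 3 and 3 members were called lower, and 1 member of each of the first 3 lists higher. The calls that passed without any 1 library were 3 of the 5, 4 of the 7, 2 of the 4 and 3 of the 4. Besides FRK1, described below, those of EFR, RPS4, RLM3, SGT1B, CRK6, CRK45 and WRKY8 ended without at least 1 library (edgeR adjusted p = 0.0502 to 0.162). CERK1, the chitin receptor kinase, had 36.4, 34.4 and 39.2 CPM in sid2 and 78.5, 66.5 and 81.1 CPM in WT (log2 −1.04, edgeR adjusted p = 0.000157). WRKY60, a partner of WRKY18, had 16.5, 14.4 and 22.2 CPM in sid2 and 59.4, 56.5 and 47.5 CPM in WT (log2 −1.62, edgeR adjusted p = 3.44e-05). CRK5, a kinase known to be induced by SA, had 16.7, 14.5 and 16.2 CPM in sid2 and 45, 39.5 and 42.9 CPM in WT (log2 −1.42, edgeR adjusted p = 0.00025). For these genes the genotypes lay wide apart in all libraries, and their calls passed without any 1 library, as did those of the MAP kinase gene MPK11 (log2 −2.02), RPS2 (−1.03), ZAR1 (−0.86), RIN4 (−0.76) and SOBIR1 (−0.71). RPS2 and ZAR1 are intracellular receptors, RIN4 is a protein that receptors guard, and SOBIR1 is a co-receptor of receptor-like proteins. In the model of the 6 mock libraries alone, 2, 3, 3 and 3 members of the 4 lists were lower, and SOBIR1 did not pass (edgeR adjusted p = 0.0503). FRK1, a flagellin-induced kinase, had 0.558, 0.231 and 3.14 CPM in sid2 and 8.25, 3.99 and 6.89 CPM in WT. Its log2 difference of −2.28 was −3.93 without sid2 replicate 3, and its call ended without sid2 replicate 1 or WT replicate 1 (edgeR adjusted p = 0.0657 to 0.0867).

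Genes of defence metabolites moved in both directions, and are set beside 4.46% higher and 6.56% lower over all genes. All 17 tested genes of aliphatic glucosinolates, sulfur-rich compounds against herbivores, had a log2 difference above 0, with a median of 0.71, and 6 were called higher. GSTF11, a glutathione transferase of the core pathway, had 12.5, 27 and 31.3 CPM in sid2 and 5.88, 8.08 and 8.97 CPM in WT (3.06-fold higher, edgeR adjusted p = 0.00368), and SOT17, a sulfotransferase of the last core step, had 28.6, 46 and 53.3 CPM in sid2 and 17, 21.3 and 19.8 CPM in WT (log2 1.14, edgeR adjusted p = 0.00475). Both were without overlap, and replicate 1 was the lowest sid2 library in each. BAT5, a chloroplast carrier (log2 0.97), and FMOGS-OX3, a side-chain oxidase (1.02), also passed without any 1 library, while the 2 other calls did not (edgeR adjusted p = 0.0633 to 0.14 where they ended). Of 18 indole glucosinolate and tryptophan genes 3 were higher (median −0.08), among them MYB51, a regulator of the pathway (log2 1.47), whose call, like the other 2, ended without WT replicate 1 or 2, and for MYB51 without sid2 replicate 1 (edgeR adjusted p over the 3 genes 0.0599 to 0.236). In the camalexin list, CYP79B2, at a step shared with indole glucosinolates, was higher (24.1, 19.1 and 26.3 CPM in sid2, 12.8, 7.76 and 8.78 CPM in WT), and CYP71A13, specific to camalexin, was lower (1.11, 0.231 and 4.07 CPM in sid2, 17.44, 5.58 and 7.12 CPM in WT). The log2 difference of CYP71A13 was −2.45, −3.78 without sid2 replicate 3 and −1.81 without WT replicate 1, and its call ended without sid2 replicate 1 or 2 or WT replicate 1 (edgeR adjusted p = 0.0651 to 0.121).

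Jasmonate genes that were called were lower in sid2. All 12 tested genes of jasmonate synthesis had a log2 difference below 0 (median −0.71), and 4 were called lower. LOX3, a lipoxygenase, had 34, 27.1 and 35.2 CPM in sid2 and 102, 102 and 270 CPM in WT (log2 −2.30, edgeR adjusted p = 0.00149; −1.66 without WT replicate 3). JAR1, which makes the active jasmonoyl-isoleucine, had 41.1, 35.4 and 40.3 CPM in sid2 and 67.4, 87.5 and 134 CPM in WT (log2 −1.31, edgeR adjusted p = 0.00247). Replicate 3 was the highest WT library for both genes, yet replicates 1 and 2 also lay above every sid2 library. The calls of OPR3 (log2 −1.26) and AOC2 (−0.81) ended without sid2 replicate 1, and that of AOC2 also without sid2 replicate 3 or any 1 WT library (edgeR adjusted p = 0.0544 to 0.139). Of 19 response genes of the MYC branch, 2 were lower and none higher (median −0.21); at 10.5% called, this list was close to the 11.0% of all genes. TAT3, an aminotransferase gene strongly induced by jasmonate, had 5.82, 20.9 and 28.8 CPM in sid2 and 217, 269 and 319 CPM in WT (14.6-fold lower, edgeR adjusted p = 6.62e-05). JAZ10, a repressor of the pathway, was called lower at log2 −2.42, which was −1.54 without WT replicate 3, and the call ended without sid2 replicate 1 (edgeR adjusted p = 0.0578). Of 20 genes of ethylene and the ERF branch, 2 were lower, also near the share over all genes: PR4, a chitin-binding protein, at 38.8, 35.3 and 54.3 CPM in sid2 and 86.9, 76.5 and 111 CPM in WT (edgeR adjusted p = 0.00464), and ARD3, given above.

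The list for abscisic acid and drought held 17 tested genes, of which 8 rose and none fell (median log2 0.83). Of all genes tested 4.46% were called higher and 6.56% lower. NCED3, the rate-limiting enzyme of abscisic acid synthesis under drought, had 50.9, 48.8 and 22.2 CPM in sid2 and 11.4, 11.5 and 16.3 CPM in WT (3.10-fold higher, edgeR adjusted p = 0.00139). P5CS1, which makes proline, had 1342, 1203 and 844 CPM in sid2 and 326, 349 and 294 CPM in WT (3.5-fold higher, edgeR adjusted p = 0.00581). HB12, a homeobox factor induced by abscisic acid, had 46.8, 39 and 24.2 CPM in sid2 and 10.07, 11.6 and 16.6 CPM in WT (log2 1.52, edgeR adjusted p = 0.00159). In all of these replicate 3 was the lowest sid2 library and still lay above WT. Their calls passed without any 1 library, whereas the other 5 did not (edgeR adjusted p = 0.0514 to 0.224 where they ended). ABI1, a phosphatase that dampens the hormone's signal, rose by 0.98 on the log2 scale, and its call ended without sid2 replicate 1 or WT replicate 1. RAB18, RD29A, RD29B and RD22, widely used abscisic acid markers, were not called. In the list of cold and dehydration proteins, which shares RD29A, 4 of 15 were higher (median 0.67): COR47 (log2 0.87), KIN2 (0.89), COR15B (1.37) and ERD14 (0.61), of which ERD14 was not called without sid2 replicate 1 (edgeR adjusted p = 0.0555). NAP, a NAC factor of leaf senescence that acts on abscisic acid synthesis, rose to 78.8, 47.9 and 35 CPM in sid2, against 9.19, 13.9 and 15.8 CPM in WT (4.14-fold, edgeR adjusted p = 0.000389). It was 1 of 2 called among 13 senescence genes, or 15.4% beside 11.0% of all genes. The call of the other, NYE1, ended without WT replicate 1 (edgeR adjusted p = 0.0518).

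**Figure D3:**
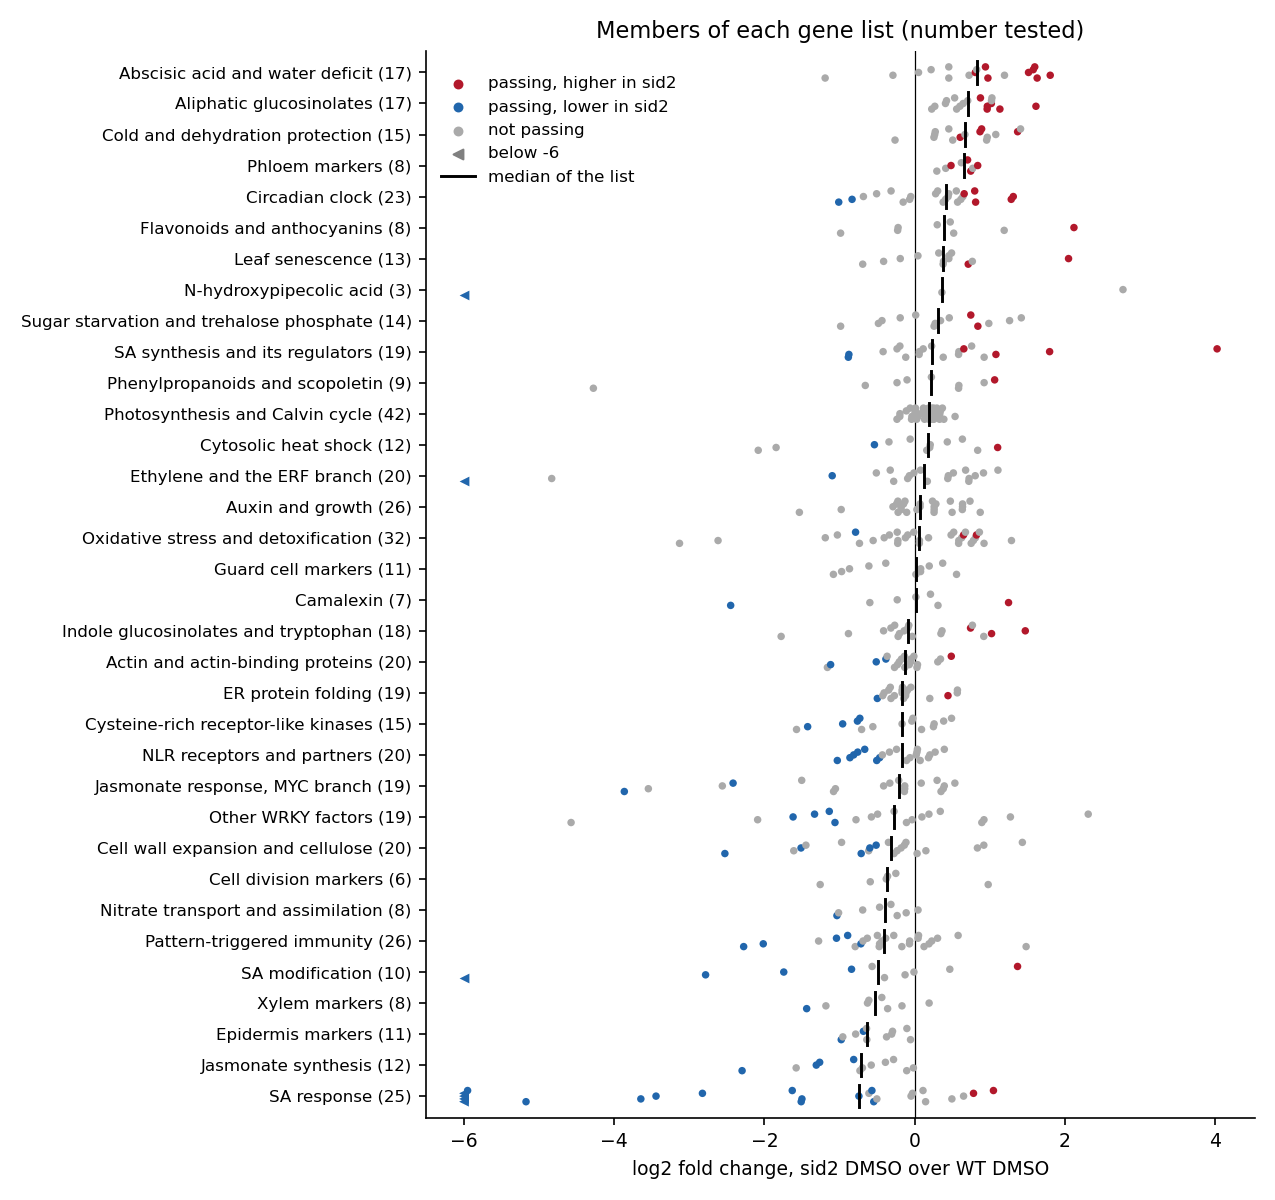
Log2 difference of sid2 over WT for each tested member of the gene lists, with called members filled, the median of each list as a bar and arrows for members below −6. SA response, jasmonate synthesis and pattern-triggered immunity have medians below 0, and abscisic acid, aliphatic glucosinolates and phloem markers have medians above 0.

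Clock genes differed as well, with 5 of 23 higher and 2 lower (median log2 0.41), beside 4.46% higher and 6.56% lower over all genes. TOC1, expressed in the evening, had 8.86, 8.87 and 8.78 CPM in sid2 and 19, 15.8 and 18.6 CPM in WT (log2 −1.01, edgeR adjusted p = 0.0015). The morning gene PRR9 had 67, 54.4 and 48.6 CPM in sid2 and 31.2, 37.9 and 27.8 CPM in WT (log2 0.81, edgeR adjusted p = 0.01), and COL2 rose by 1.29. The levels of TOC1 were nearly equal among the sid2 libraries. The other 4 calls each ended without at least 1 library (edgeR adjusted p = 0.0603 to 0.13), among them that of the morning-phased RVE1 (log2 1.31), which ended without sid2 replicate 1 or WT replicate 1. A difference in harvest time between the genotypes was not tested, since the labels give none.

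Cell wall genes were lower in 5 of 20 and higher in none (median log2 −0.31), beside 6.56% lower over all genes. XTH24, an enzyme that cuts and rejoins xyloglucan, had 14.6, 29.5 and 16.4 CPM in sid2 and 166, 140 and 42.5 CPM in WT (5.76-fold lower, edgeR adjusted p = 0.00233), and COB and CSI1, which guide cellulose synthesis, fell by 0.71 and 0.60 on the log2 scale. The calls of XTH4 and CESA6 ended without 1 library (edgeR adjusted p = 0.0564 to 0.165), for XTH4 sid2 replicate 1 or 3 or WT replicate 1 or 2. Among 20 actin and actin-binding genes, of interest because the study also treats leaves with an actin inhibitor, ADF4 was higher (log2 0.49) and the formin FH1 (−1.12), the myosin XI-2 (−0.51) and the villin VLN2 (−0.38) were lower. The calls ended without WT replicate 1 or 2 for FH1, WT replicate 1 or 3 for ADF4, WT replicate 2 for XI-2 and any 1 library for VLN2. They also ended without sid2 replicate 1 for FH1, 2 for XI-2 and 3 for ADF4 (edgeR adjusted p = 0.0555 to 0.139). None of these calls passed in the model of the 6 mock libraries alone. Of the actin list 20% was called, beside 11.0% of all genes.

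Markers of leaf cell types were read as a check on the tissue, beside 4.46% higher and 6.56% lower over all genes. The 42 genes of photosynthesis and the Calvin cycle, which mark mesophyll, summed to 316227, 336582 and 332672 CPM in sid2 and 320644, 278093 and 280682 CPM in WT. None of the 42 was called by edgeR (3 at an unadjusted p under 0.05; 1 by DESeq2), with a median log2 difference of 0.19. Of 8 phloem markers 4 were higher and none lower (median 0.66), and their summed level was 1239, 1114 and 1096 CPM in sid2, against 593.3, 814.4 and 693.8 CPM in WT. SUC2, the sucrose loader of companion cells, had 265, 259 and 242 CPM in sid2 and 127, 164 and 136 CPM in WT (1.79-fold higher, edgeR adjusted p = 0.00238), and PP2-A1, a phloem lectin, rose by 0.75 on the log2 scale (edgeR adjusted p = 0.00404). In bulk leaf RNA, more cells of a type and more RNA per cell cannot be told apart. The calls of SUC2 and PP2-A1 passed without any 1 library, and that of the proton pump HA3 (log2 0.71) ended without WT replicate 1, and that of the regulator APL (0.49) without sid2 replicate 1 or 2 or WT replicate 1 or 3 (edgeR adjusted p = 0.0528 to 0.111).

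The other cell types gave less. Of 11 tested epidermis markers 2 were lower and all 11 had a log2 difference below 0 (median −0.64), with a summed level of 667.7, 567.4 and 786.6 CPM in sid2, against 965.7, 1087 and 836.8 CPM in WT; 1 further marker had no read in any of the 6. The wax gene CER3 (log2 −0.68) and the fatty acid elongase KCS1 (−0.98) were the 2 called, and both ended without sid2 replicate 1 or WT replicate 1 or 2, and KCS1 without sid2 replicate 2 (edgeR adjusted p = 0.0551 to 0.116). Xylem markers summed to 12.1, 12.1 and 28.3 CPM in sid2 and 30.6, 26.0 and 21.4 CPM in WT, so that sid2 replicate 3 lay among the WT libraries; CESA4, a cellulose synthase of secondary walls, was the 1 of 8 called (log2 −1.44), and ended without any 1 sid2 library or without WT replicate 1 or 2 (edgeR adjusted p = 0.0704 to 0.164). Guard cell markers summed to 921.5 to 1287 CPM in sid2 and 896.6 to 1064 CPM in WT, with none of 11 called by edgeR (3 at an unadjusted p under 0.05; none by DESeq2). Of 6 cell division genes and 26 genes of auxin and growth none was called by edgeR either (1 and 2 at an unadjusted p under 0.05; 0 and 1 by DESeq2). The summed phloem level was higher and the summed epidermis level lower in every sid2 library than in every WT library, while the xylem sums overlapped; their part in the results above was not tested.

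In some lists a single sid2 library departed from the other sid2 libraries. Replicate 2 did so in cysteine-rich receptor-like kinases, given above, and replicate 3 in the lists described first here. Relative to the WT mean, the median camalexin gene was at log2 −0.52, −1.30 and 0.72 in the 3 sid2 libraries, and the median gene of oxidative stress and detoxification at −0.09, −0.35 and 0.51. PAD3, the last enzyme of camalexin synthesis, had 0.682, 0.694 and 6.14 CPM in sid2 and 3.11, 2.34 and 5.69 CPM in WT; its log2 difference was −0.60 (edgeR adjusted p = 0.587) with replicate 3 and −2.44 (edgeR adjusted p = 0.00646) without it. NIA1, a nitrate reductase, had 63.6, 63.6 and 206 CPM in sid2 and 155, 251 and 266 CPM in WT, with a log2 difference of −1.01 (edgeR adjusted p = 0.134), and −1.81 (edgeR adjusted p = 0.00333) without replicate 3. Other lists also moved toward or past the WT mean in replicate 3. Among them were clock genes (0.56, 0.36 and 0.09) and sugar starvation genes (0.38, 0.49 and −0.01). Epidermis markers (−0.71, −0.535 and −0.08) and xylem markers (−0.83, −1.09 and 0.28) did so too. Medians of the SA-response, abscisic acid and jasmonate synthesis lists kept their direction in all 3 sid2 libraries. The median SA-response gene was at −0.81, −1.30 and −0.96 in the sid2 libraries, the median abscisic acid gene at 0.98, 0.83 and 0.68, and the median gene of jasmonate synthesis at −0.92, −0.57 and −0.66. Without replicate 3 the called members were 15 lower and none higher of the SA-response list, 10 higher of the abscisic acid list and 9 higher and 2 lower of the clock list. Among WT libraries, replicate 3 stood highest in jasmonate response genes of the MYC branch, at a median of 0.69 against −0.36 and −0.26 in replicates 1 and 2.

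**Figure D4:**
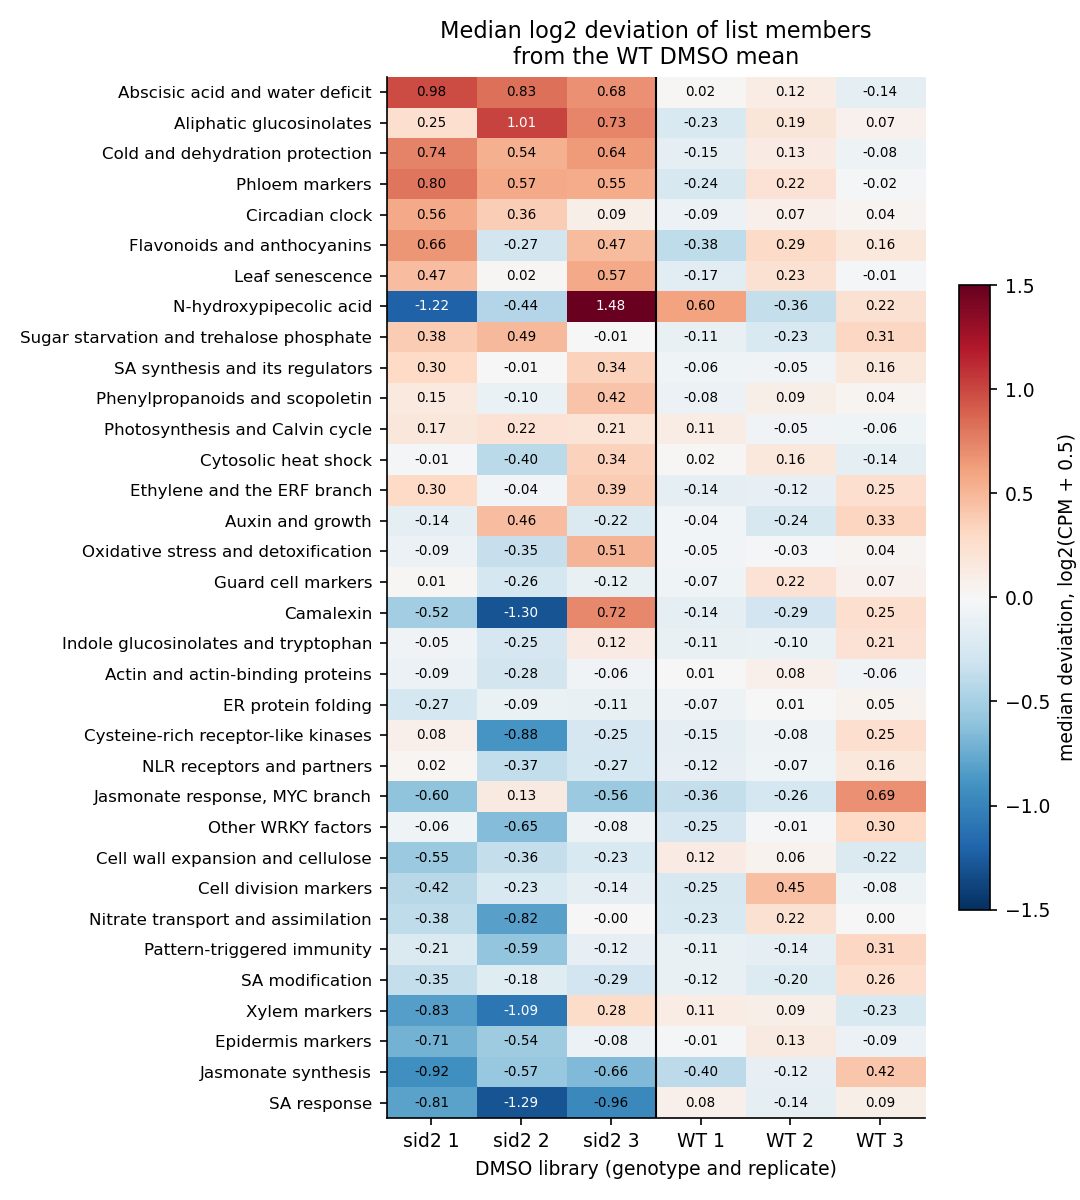
Median deviation of each list's genes from the WT mean, in log2(CPM + 0.5), for each of the 6 mock libraries, sid2 columns left of WT columns. The SA response row is below 0 and the abscisic acid row above 0 in all 3 sid2 libraries, while the camalexin row changes sign in sid2 replicate 3.

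The remaining lists held 3 or fewer called members each. Sugar starvation genes had 2 of 14 higher, flavonoid genes 1 of 8 (PAP1, a MYB activator of anthocyanin synthesis, log2 2.12), phenylpropanoid genes 1 of 9, and nitrate genes 1 of 8 lower (NIA2, −1.03). Protein folding genes of the endoplasmic reticulum had 1 of 19 higher and 1 lower, cytosolic heat shock genes 1 of 12 each way, and genes of oxidative stress and detoxification 2 of 32 higher and 1 lower, so that 9.38 to 16.7% of each of these last 3 lists was called, beside 11.0% of all genes. MBF1C, a coactivator of the heat response, was the steadiest of these, at 26.9, 22.2 and 21.3 CPM in sid2 and 10.5, 12.4 and 9.76 CPM in WT (edgeR adjusted p = 0.0012). It alone among these 12 calls passed without any 1 library; PAP1 and NIA2 ended without sid2 replicate 1 or 2 or any 1 WT library (edgeR adjusted p = 0.0506 to 0.163).

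The libraries given latrunculin B offered the same genotype contrast in other leaves, where 43.4% of all genes tested were called (22.1% higher, 21.2% lower). Of the 1191 genes lower in sid2 mock leaves, 746 (62.6%) were also lower in sid2 under latrunculin B, 96 (8.06%) were higher and 349 (29.3%) were not called. Of the 810 genes higher in sid2 mock leaves, 337 (41.6%) were also higher, 107 (13.2%) were lower and 366 (45.2%) were not called. The shared genes were 19.4% of all genes lower in sid2 under latrunculin B and 8.38% of all genes higher there. A test of the difference between the contrasts (interaction) passed for 24.2% of all genes, for 357 of the 810 and for 429 of the 1191.

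Of the 25 SA-response genes, 15 were lower in sid2 mock leaves and 23 in sid2 under latrunculin B, where their median log2 difference was −2.48. PCC1 had a log2 difference of −5.53 under latrunculin B and −5.95 in mock leaves, BG3 −3.68 and −3.44, and CERK1 −1.07 and −1.04, and for none of these did the difference between settings pass (edgeR adjusted p = 0.597 to 0.925). PR2, PR5 and WRKY70, not called in mock leaves, were lower in sid2 under latrunculin B: PR5 had 68.6, 100 and 69 CPM in sid2 and 512, 609 and 859 CPM in WT (interaction log2 −3.03, edgeR adjusted p = 9.7e-05). Outside the SA genes, TAT3 (−3.32), NCED3 (1.24), P5CS1 (1.05), SOT17 (0.74) and TOC1 (−1.82) kept the direction of the mock leaves and were called, while HB12 (−0.56), NAP (0.42) and SUC2 (−0.37) were not called under latrunculin B and differed between settings (interaction edgeR adjusted p = 0.000961, 0.00655 and 0.00115). Photosynthesis genes, with no call in mock leaves, were all higher in sid2 under latrunculin B, at 42 of 42.

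**Figure D5:**
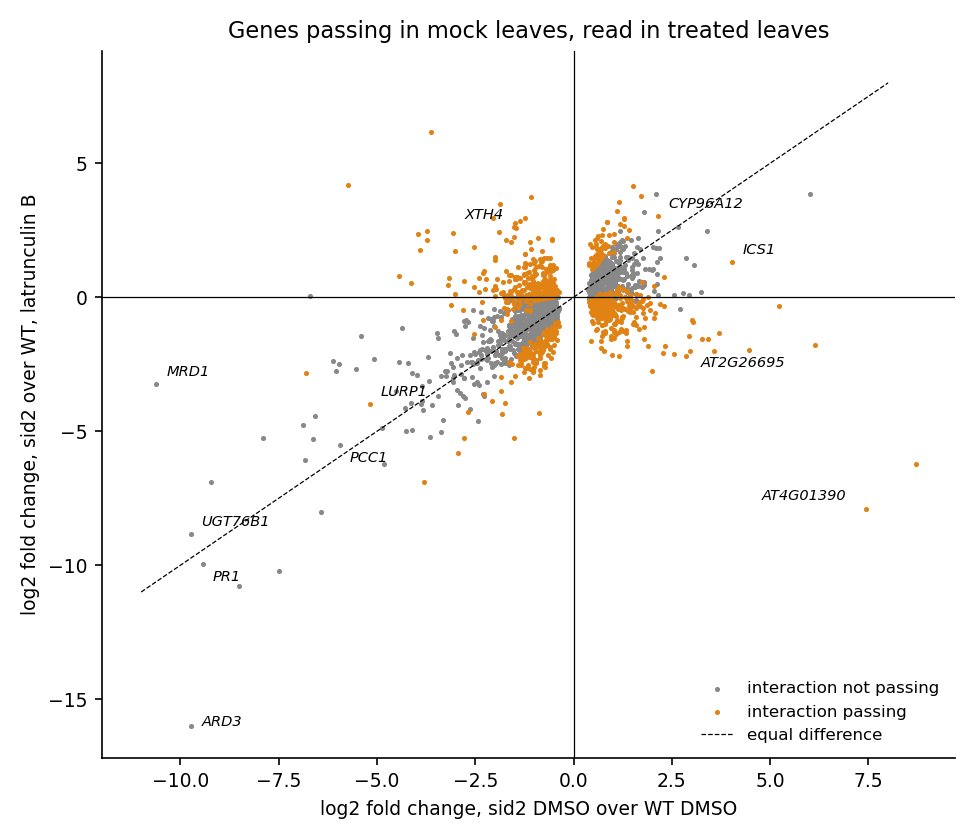
Log2 difference of sid2 over WT under latrunculin B (y) against that in mock leaves (x) for the 2001 genes called in mock leaves; orange points pass the test of the difference between the contrasts. Most genes lower in mock leaves lie below 0 on both axes, and ICS1 lies above 0 on both, but lower on the y axis.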

How the data were processed

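Per the labels' protocols, the kits were RNeasy Mini for RNA and NEBNext Ultra II Directional for libraries. The submitters' processing notes name Trimmomatic, Salmon 1.3.0 and TAIR10. The authors deposited estimated counts per transcript and TPM, per the file headers; 99.99% of transcript lengths are multiples of 3, so reads outside coding sequence were not counted.

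Estimated counts of 32875 transcripts were summed over 27313 genes and rounded. All 12 libraries (4 groups) entered 1 model in edgeR 4.0.16 (R 4.3.3; filterByExpr, minimum count 10; TMM; quasi-likelihood F-test; Benjamini-Hochberg over 18149 genes; common BCV 0.211). limma 3.58.1 on log2(TPM + 1) and DESeq2 1.42.0 were alternatives. On simulated data the fit recovered 8.96% of genes changed 1.5-fold, 52.2% at 2-fold and 93.9% at 4-fold, and 4.63% of its calls were unchanged genes. The simulation changed only 67, 67 and 66 genes at these sizes, each with at least 1 CPM, in the sid2 mock libraries. All groups otherwise shared the same level, with no latrunculin B effect. These shares may therefore not carry over to the real libraries, where 11.0% of genes were called in mock leaves and 43.4% under latrunculin B. Named genes were ICS1 and the 15 largest non-overlapping called changes each way, at a mean log2 CPM of at least 1 over all 12 libraries. All members of the 4 SA lists and the 4 best-ranked members by adjusted p of every other list were added, making 195, of which 124 were called. AT4G01390, and GLR2.5, AT2G44240 and PHT3;2 of the largest falls, had too few reads to be tested in the 6 mock libraries alone. PAD3 and NIA1 were among the named genes, and were picked to describe sid2 replicate 3 with their values known. RAB18, RD29A, RD29B, RD22, EFR, RPS4, RLM3, SGT1B and CESA6 are mentioned but fell outside the naming rule. The members and lists (34 lists, 580 genes) were chosen with earlier results of these data known. Counting intervals are exact at 95% and cover counting error only. Promoters were read from the RefSeq TAIR10.1 genome.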

Additional observations from a re-analysis of the deposited data

Results flagged for a closer look

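The genotype difference was tested for a change between latrunculin B and mock leaves (interaction term, edgeR). For 203 genes the call pointed one way in mock leaves and the other way under latrunculin B (107 of the 810 higher and 96 of the 1191 lower in mock leaves). The difference between the contrasts passed for all 203, beside 24.2% of all genes. Opposite calls within 1 model nearly fix that outcome, so it adds no support. ICS1 kept its direction, but its log2 difference was 1.3 under latrunculin B against 4.03 in mock leaves, a change of −2.73 (edgeR adjusted p = 2.8e-05). Under latrunculin B it had 321.5, 298.9 and 384.6 CPM in sid2 and 110.7, 136 and 160.6 CPM in WT.

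Of the other SA genes called higher in sid2 mock leaves, PBS3, CBP60G, MES9, WRKY46 and AIG1 were called lower in sid2 under latrunculin B. CBP60A was not called there (log2 0.17, edgeR adjusted p = 0.47), and the change in its difference did not pass (edgeR adjusted p = 0.185). The change in log2 difference was −3.37 for PBS3, −2.45 for CBP60G, −3.0 for the esterase gene MES9, −2.03 for WRKY46 and −2.79 for AIG1 (edgeR adjusted p = 0.000142 to 0.0014). PBS3 had 40.7, 51.4 and 60.7 CPM in sid2 and 99.9, 151 and 204 CPM in WT under latrunculin B.

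Of the genes with the largest rises in sid2 mock leaves, 4 also turned. The change was −15.3 for AT4G01390, −4.97 for AT2G26695, −4.66 for AT1G53100 and −4.34 for AT1G64360 (edgeR adjusted p = 0.000142 to 0.0018). AT4G01390 had 0, 0 and 0.109 CPM in sid2 and 9.18, 6.67 and 14 CPM in WT under latrunculin B, so its fitted change depends on the prior count and is not a measured fold.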

How the results depend on the processing

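No paired analysis was possible because the titles number the libraries without saying what the numbers share. Beside the 2001 genes called with all 12 libraries, a separate model of the 6 mock libraries alone called 1044 (393 higher, 651 lower). With all 12, 855 had an absolute log2 difference of at least 1 (263 higher, 592 lower). Leaving out 1 library gave 1035 to 2347 calls (323 to 951 higher, 712 to 1396 lower), fewest without WT replicate 1. Under latrunculin B the effect-size threshold left 3873 of 7870. Library size alone gave 552 higher and 1536 lower. DESeq2 called 2698. The call of ICS1 held under all alternatives, and none of the 124 named genes called was reversed under any; 63 of them stayed called under every alternative other than effect size. The genes below were not called and changed sign, and the cause was not tested. With library size alone EDS1 was at −0.02083 and SAG101 at −0.02888. With limma on log2(TPM + 1) they were at −0.01323 and −0.00662, with limma on log2(TPM + 0.1) at −0.01556 and −0.01004, and ALD1 at −0.2176. Leaving out 1 library gave EDS5 −0.3292 to 0.04847, EDS1 −0.06493 to 0.2874, SAG101 −0.08962 to 0.2605, GH3.5 −0.097 to 0.7046, MES1 −1.024 to 0.0553, UGT71C3 −0.9239 to 1.608, UGT74F2 −0.1672 to 0.1983, WRKY53 −0.01601 to 0.7837, PR2 −0.07929 to 0.3964, NPR3 −0.04811 to 0.2958, WRKY70 −0.591 to 0.2102, PR5 −0.215 to 0.1465, ALD1 −1.907 to 0.9686, GGP1 −0.1042 to 0.4491, VND7 −1.049 to 0.1409 and AUR1 −0.9196 to 0.2544. Depth limits the low genes: with no read in sid2, a level of up to 0.0696 CPM is allowed by counting.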
